A study of Homo sapiens with 8 samples.

Results

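A set of 10 genes had ratios of unusual size or evenness in clones of CAPAN-2 cells with knocked-down ErbB2: MAGED1, SRGN, MLPH, HSD17B12, C6orf15, ALCAM and DYSF, which were higher in the knockdown, and SLC12A7, RTL6 and DET1, which were lower. At the brightest probe of each gene, RTL6 was below the detection limit in every clone and DET1 in 3 of 4, HSD17B12 was below it in the control on 3 of 4 arrays, and the other 7 genes were detected in both RNAs on all 4 arrays. The 10 genes hold 19 of the 41000 probes of the array and are 10 of the 17297 genes that the probes could be named for. They were picked from these same measurements for a very large or a very even ratio on the 4 ErbB2-KD arrays. Their ErbB2-KD ratios are therefore a description and carry no test. The rule that picked them did not use the MUC4-KD arrays or the genes around or related to them. The members and the lists of related genes were, however, drawn up with earlier results of these data known. CAPAN-2, an established cell line, comes from a human pancreatic adenocarcinoma. ErbB2-KD cells carried a stably transfected pGeneClip vector with an shRNA against ErbB2 and were selected in puromycin. Their controls, called NT, carried the empty vector. MUC4-KD cells were made by retroviral infection with pRetroSuper holding a sequence against MUC4 and were selected in G418, with the empty vector in the controls called Mock. All of these lines were single clones raised by limiting dilution, so that each value belongs to 1 clone or to a mixture of clones. Each of 8 Agilent 2-colour arrays held 1 knockdown RNA and a pool of 4 control clones of the same experiment, with 4 arrays for ErbB2-KD (clones EV7, EV12, EV9 and EV18 on arrays 1 to 4) and 4 for MUC4-KD, whose clones the labels do not name. The knockdown was in Cy5 on ErbB2-KD arrays 1 and 2 and on MUC4-KD arrays 3 and 4, and in Cy3 on the other arrays.

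The 10 genes share no pathway. MAGED1 encodes a MAGE family adaptor protein that binds the neurotrophin receptor p75NTR, and SRGN encodes serglycin, the proteoglycan core protein of secretory granules in blood cells. MLPH encodes melanophilin, which links RAB27A on melanosomes to a myosin motor. HSD17B12 encodes the 3-ketoacyl-CoA reductase of fatty acid elongation, ALCAM an adhesion molecule of the immunoglobulin superfamily (CD166), and DYSF dysferlin, a protein of membrane repair best known from muscle. C6orf15 is an open reading frame in the major histocompatibility region. Of the genes that were lower, SLC12A7 encodes the potassium-chloride cotransporter KCC4, RTL6 (formerly LDOC1L) encodes a Gag-like protein derived from a retrotransposon, and DET1 encodes a subunit of the DET1-COP1 ubiquitin ligase, which marks transcription factors such as JUN for degradation. ErbB2 itself is a receptor tyrosine kinase that signals in dimers with the other ErbB receptors, and MUC4 is a membrane mucin that binds it.

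Promoter sequences are shown because the genes differed by about 4-fold or more between clones of a single line, and the CG dinucleotides, the positions at which DNA can be methylated, are in capitals. RefSeq promoters (GRCh38.p14) were at hand for 8 of the 10 genes, with 12 starts between them. Those of SRGN and HSD17B12 were not used here. The 250 bases before the start were searched for CG and for the GC box (GGGCGG on either strand), over 35116 promoters of that length, in which the median was 11 CG and 42.6% held a GC box. The stretches printed, of the 3 genes that were lower and of the 2 starts of MLPH, held from 2 to 31 CG.
RTL6: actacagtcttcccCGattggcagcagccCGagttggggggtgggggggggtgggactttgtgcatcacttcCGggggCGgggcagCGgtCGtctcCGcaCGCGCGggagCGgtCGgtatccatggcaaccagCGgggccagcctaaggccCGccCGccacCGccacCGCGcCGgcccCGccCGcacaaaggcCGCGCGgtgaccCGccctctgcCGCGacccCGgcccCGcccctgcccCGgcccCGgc
SLC12A7: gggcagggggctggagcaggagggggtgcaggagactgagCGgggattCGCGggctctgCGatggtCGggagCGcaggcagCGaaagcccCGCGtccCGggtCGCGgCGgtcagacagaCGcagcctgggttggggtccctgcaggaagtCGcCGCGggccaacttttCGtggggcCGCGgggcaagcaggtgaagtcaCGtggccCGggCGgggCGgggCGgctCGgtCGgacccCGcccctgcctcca
DET1: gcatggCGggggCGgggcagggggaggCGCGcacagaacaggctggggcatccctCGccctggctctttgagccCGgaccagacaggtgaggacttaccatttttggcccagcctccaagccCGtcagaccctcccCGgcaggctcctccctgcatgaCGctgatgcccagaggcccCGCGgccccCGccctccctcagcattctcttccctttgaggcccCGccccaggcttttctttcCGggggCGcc
MLPH, first start: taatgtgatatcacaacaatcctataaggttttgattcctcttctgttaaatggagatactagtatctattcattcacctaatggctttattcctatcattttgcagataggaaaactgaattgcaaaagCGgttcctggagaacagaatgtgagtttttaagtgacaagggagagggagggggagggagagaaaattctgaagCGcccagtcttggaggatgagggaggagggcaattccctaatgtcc
MLPH, second start: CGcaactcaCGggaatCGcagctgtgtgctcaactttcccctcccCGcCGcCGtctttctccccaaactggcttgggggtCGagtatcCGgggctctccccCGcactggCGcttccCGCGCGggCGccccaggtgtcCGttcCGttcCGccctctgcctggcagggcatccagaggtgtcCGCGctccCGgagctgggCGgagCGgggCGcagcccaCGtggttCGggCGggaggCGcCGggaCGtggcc
The RTL6 stretch (chr22:44498234-44498483, minus strand) held 31 CG and 5 GC boxes, and 89.1% of promoters held fewer CG. SLC12A7 (chr5:1112064-1112313, minus strand) held 28 CG and 4 GC boxes. The stretch of DET1 shown (chr15:88546376-88546625, minus strand) held 15 CG and 3 GC boxes, and the 2 other DET1 starts, which overlap, held 7 and 6 CG with no GC box. The starts of MLPH (chr2:237486160-237486409, plus strand and chr2:237487001-237487250, plus strand) differed from each other, with 2 CG and no GC box at the first and 29 CG and 3 GC boxes at the second. Among the other genes, ALCAM had 20 CG, MAGED1 had 6 and 17 at its 2 starts, DYSF had 9 and C6orf15 had 1, which only 6.06% of promoters undercut. Genes with many and with few CG were thus found among the 7 that were higher, and no TATAAA on the gene's strand was present in any of the 12 stretches (6.80% of all promoters held it). The arrays did not measure methylation or transcription factor binding.

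The targeted genes were read before the rest. ERBB2 (probe A_23_P89249) had log2 ratios of -0.58, -0.35, -0.32 and -0.40 on ErbB2-KD arrays 1 to 4, a mean of -0.41 ± 0.12 (SD, n = 4), and did not pass limma's test (adjusted p = 0.138). It was thus lower on 4 of 4 arrays, by far less than the 10 genes. A further ERBB2 probe averaged 0.04. MUC4 has 4 probes, and they did not repeat each other. The brightest (A_24_P239176) had log2 ratios of 0.47, 0.39, 0.28 and -0.32 in RNA labelled MUC4-KD relative to RNA labelled Mock (mean 0.20 ± 0.36, SD, n = 4; limma adjusted p = 0.391), and A_24_P239177 averaged 0.34 ± 0.46 (limma adjusted p = 0.239). The other two passed, A_24_P208825 with 1.71, 2.34, 2.21 and 2.05 (mean 2.08 ± 0.27, SD, n = 4; limma adjusted p = 0.00104) and the dim A_24_P239183 with a mean of 1.43 ± 0.67 (limma adjusted p = 0.0119). No MUC4 probe thus had a lower mean in the RNA labelled as the knockdown, and 2 were higher, against the label. Other assays of MUC4 in these cells, such as Western blotting and qRT-PCR, were not analysed here. Ratios of the MUC4-KD arrays keep the labels throughout, and whether the labels were exchanged was not tested. A further measure was the SD of the difference in log2 signal of 1 RNA between arrays of one dye orientation. In the ErbB2-KD experiment it was 0.93 for NT and 1.17 for ErbB2-KD between arrays 1 and 2. Between arrays 3 and 4 it was 0.28 for NT and 0.62 for ErbB2-KD, so the NT pool varied less. On the MUC4-KD arrays the RNA labelled MUC4-KD varied less, with 0.29 against 0.61 for the RNA labelled Mock between arrays 1 and 2, and 0.40 against 0.97 between arrays 3 and 4. Which RNA was the pool there was not tested.

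CAPAN-2 is epithelial, and the 8 ductal markers read here (KRT7, KRT8, KRT18, KRT19, EPCAM, CDH1, ELF3 and CLDN4) were well above background in both RNAs on all 8 arrays. Markers of the cell types in which SRGN, MLPH and DYSF are best known were mostly dim. On the ErbB2-KD arrays 2 of 7 leukocyte markers (CORO1A and LCP1) were well above background on 4 arrays in either RNA, with PTPRC on none in NT and CD53 on none in both, and the summed signal of the list was 9068 to 54587 in ErbB2-KD and 18685 to 60133 in NT. Of 7 melanocyte markers 2 were (PMEL and MITF), with MLANA and TYRP1 on none and sums of 1221 to 3033 and 819 to 1795. Of 6 muscle markers 2 were (MYOD1 and MB), with ACTA1 on none and sums of 274 to 3605 and 1836 to 4091. Of 5 endothelial markers 1 was (VWF), with TEK on none and sums of 100 to 1043 and 38 to 344, and of the 5 fibroblast markers on the array 1 was (THY1), with PDGFRB and LUM on none and sums of 550 to 2783 and 593 to 1197. These ranges overlapped between the RNAs, and the part of such cells in the ratios of the 10 genes was not tested. On the MUC4-KD arrays the same 2 leukocyte, 2 melanocyte and 1 fibroblast markers were well above background on 4 arrays in either RNA, MYOD1 was in both RNAs and MB in the RNA labelled MUC4-KD alone, and of the endothelial markers TEK was in the RNA labelled MUC4-KD and none in the RNA labelled Mock.

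A ratio below is a log2 ratio after background correction and loess normalization, and a signal is the spot minus its local background in intensity units, before any scaling between dyes. A probe counted as on in an RNA where the scanner software called it well above background. Of the 19 member probes, 18 were on in all 4 arrays of at least 1 RNA of the ErbB2-KD experiment and so could be tested (23869 of all probes could), and 17, of 9 genes, on the MUC4-KD arrays (25047 of all probes). SRGN was not among the latter. In RNA from a population of cells, fewer cells that express a gene and less RNA in each cell cannot be told apart.

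At the offset of 50 used here, RTL6 had the largest mean ratio of all 23869 probes on the ErbB2-KD arrays. Its log2 ratios were -5.15, -4.63, -4.97 and -5.17 (mean -4.98 ± 0.25, SD, n = 4). Signals in the NT pool were 1868, 1719, 3773 and 4033 on arrays 1 to 4, against 6, 41, 6 and 4 in the ErbB2-KD clones, where the probe was on in no array. Since the clones gave only a bound, RTL6 was at least 31.1-fold lower in ErbB2-KD under the background correction used here. This bound compares the mean of the normalized NT values with the lowest signal called above background in each knockdown channel, or with the probe's own where that was higher. The other RTL6 probe repeated the pattern, with NT signals of 360 to 677, clone signals of -12 to 1, and ratios of -3.28, -2.85, -2.69 and -2.87 (at least 6.80-fold lower).

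SLC12A7 (probe A_23_P61688) had log2 ratios of -4.46, -4.13, -5.20 and -5.18 (mean -4.74 ± 0.53, SD, n = 4, a 26.8-fold difference). Its NT signals of 6672, 6177, 15130 and 16900 were the highest control signals among the 10 genes. Unlike RTL6 it stayed on in the clones, with signals of 404, 760, 142 and 171. The other 2 SLC12A7 probes were dim. A_23_P251855 was on in NT only (73 to 170, against -16 to 5 in the clones) and at least 2.60-fold lower. A_24_P60634 had a mean ratio of -0.46 ± 0.44 (SD, n = 4) and was 0.18 on array 2, the only value of any member probe that ran against the other 3 arrays of its own probe.

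DET1, with a single probe, had log2 ratios of -4.31, -3.99, -3.65 and -4.19 (mean -4.04 ± 0.29, SD, n = 4). The NT pool gave 918, 924, 1910 and 2182, and the clones gave 13, -10, 28 and 8. Only on array 3, with clone EV9, was DET1 on in the knockdown, and the size of the ratio depended on the offset (mean -4.93 at an offset of 10).

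**Figure D1:**
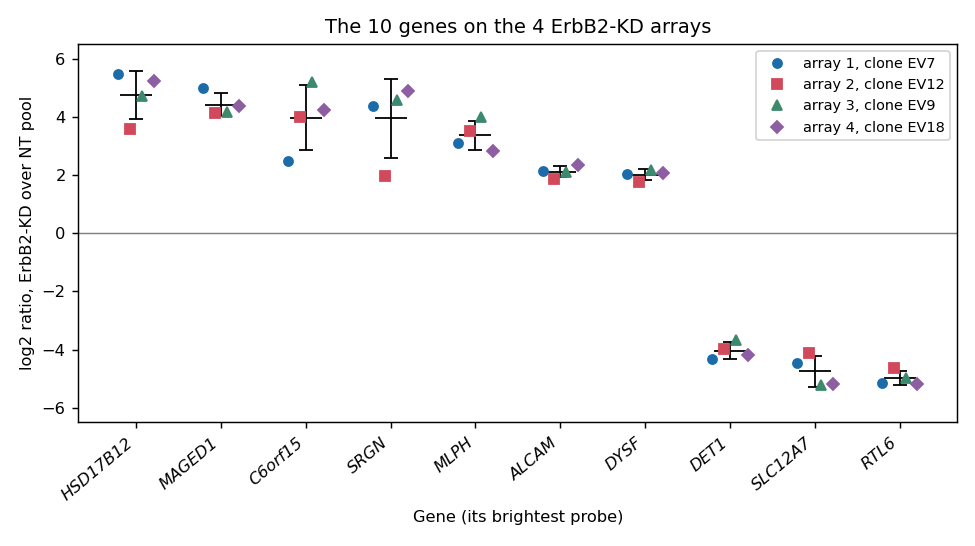
Log2 ratio of ErbB2-KD over the NT pool for the brightest probe of each gene. Symbols are the 4 arrays, each with its own clone, and the bar and whiskers are the mean and SD over them. Array 2 was the lowest for SRGN and HSD17B12, array 1 was the lowest for C6orf15, and no array crossed 0.

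HSD17B12 was the only gene among those that were higher whose brightest probe was not on in NT on all 4 arrays. The log2 ratios were 5.46, 3.58, 4.73 and 5.23 (mean 4.75 ± 0.83, SD, n = 4). Signals in the clones were 4592, 4598, 1025 and 1341. In NT they were 6, 66, 3 and -3, and the probe was on in NT on array 2 alone, the array with the smallest ratio. Here too the size depended on the offset, with a mean of 5.83 at an offset of 10. A dim HSD17B12 probe, the only member probe that could not be tested, was on in the clones on 3 arrays and in NT on none, with ratios of 0.44, 0.58, 0.21 and 0.53.

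MAGED1 had 2 probes that repeated each other. The brighter one, whose name comes from the study's own gene lists, had log2 ratios of 4.98, 4.14, 4.15 and 4.36 (mean 4.41 ± 0.40, SD, n = 4, 21.2-fold). Clone signals were 4673, 7047, 1044 and 2052 and NT signals 26, 66, 39 and 100. The other probe had ratios of 3.25, 2.10, 3.22 and 3.69 (mean 3.07 ± 0.68, SD, n = 4).

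C6orf15 and SRGN had means close to each other but uneven clones. For C6orf15 the log2 ratios were 2.47, 3.99, 5.20 and 4.23 (mean 3.97 ± 1.13, SD, n = 4, 15.7-fold), with clone signals of 644, 9037, 3908 and 1187 over 20, 132, 118 and 33 in NT. The lowest ratio was that of clone EV7. For SRGN they were 4.37, 1.95, 4.58 and 4.89 (mean 3.95 ± 1.35, SD, n = 4, 15.4-fold), with 3018, 1532, 1567 and 3719 over 39, 78, 54 and 168. Here array 2, with clone EV12, stood apart from the other 3, which lay between 4.37 and 4.89. Each clone was on 1 array, so clones and arrays cannot be told apart. Array 2 had a median spot intensity, before background was subtracted, of 593 in Cy5 and 248 in Cy3. On the other ErbB2-KD arrays it was 158 to 201 in Cy5 and 100 to 116 in Cy3. Only 8.01% of the 799 probes with a mean of at least 2-fold had a larger SD than SRGN, and 13.6% a larger one than C6orf15.

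MLPH had log2 ratios of 3.11, 3.52, 3.99 and 2.83 at its brightest probe (mean 3.36 ± 0.51, SD, n = 4, 10.3-fold). It was not off in the control: NT gave 122, 147, 341 and 293, and the clones 2579, 6930, 3438 and 1307. Both of its other probes were far dimmer. One of them (A_23_P165783) was on in the clones on 4 arrays and in NT on none, with ratios of 0.83, 0.89, 1.68 and 0.99 (at least 2.12-fold higher), and the other had a mean of 0.66.

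ALCAM and DYSF were chosen for evenness, not size. ALCAM had log2 ratios of 2.15, 1.86, 2.11 and 2.34 (mean 2.12 ± 0.20, SD, n = 4, 4.34-fold), from clone signals of 1783, 2424, 1146 and 1580 and NT signals of 198, 188, 415 and 521. A dimmer ALCAM probe had a mean of 0.63 ± 0.32 (SD, n = 4). DYSF had 2.02, 1.77, 2.18 and 2.08 (mean 2.01 ± 0.17, SD, n = 4, 4.04-fold) and was the brightest of the 10 genes in the clones, with 15492, 16611, 10926 and 11754 over 2128, 1676, 4769 and 5679 in NT. Neither gene was off in either RNA. Among the 799 probes of at least 2-fold, 97.2% had a larger SD than DYSF and 95.7% a larger one than ALCAM. The second DYSF probe was less even, at 1.81, 1.65, 2.81 and 2.77, and there arrays 1 and 2, with the knockdown in Cy5, lay below arrays 3 and 4.

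**Figure D2:**
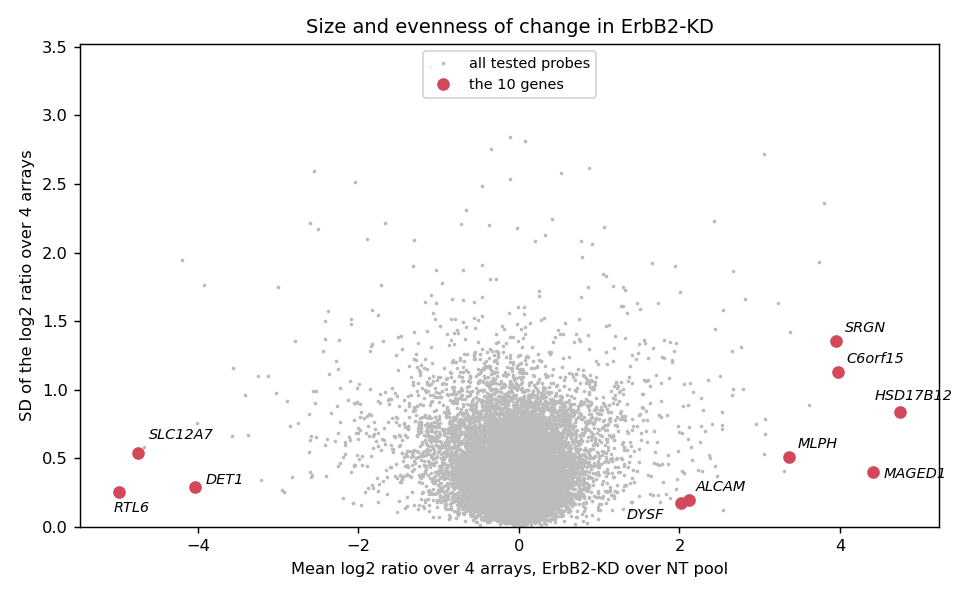
Mean log2 ratio of ErbB2-KD over the NT pool (x) and its SD over the 4 arrays (y) for every tested probe (grey) and for the brightest probe of the 10 genes (red). RTL6, SLC12A7 and HSD17B12 lay at the ends of the x axis, whereas ALCAM and DYSF lay close to the bottom at means of 2.12 and 2.01.

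Of the 19 member probes, 18 had 1 direction on all 4 ErbB2-KD arrays. Over all tested probes 27.5% did so, and 0.344% did with a mean of at least 5-fold. As the choice used these arrays, nothing is read from that. The sign held in both dye orientations for the brightest probe of every member. With the knockdown in Cy5 and in Cy3 the means were 3.16 and 4.74 for SRGN and 3.23 and 4.71 for C6orf15, the widest gaps, and -4.89 and -5.07 for RTL6. Background correction set the size of the most extreme ratios, because an offset of 50 was added to both channels. In the log ratios of the scanner software, without an offset, the mean was -8.35 for RTL6, 7.78 for HSD17B12 and -6.45 for DET1, whereas it was -5.14 for SLC12A7 and 2.09 for DYSF, both detected in either RNA. The order of the genes by size therefore depended on the background correction.

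**Figure D3:**
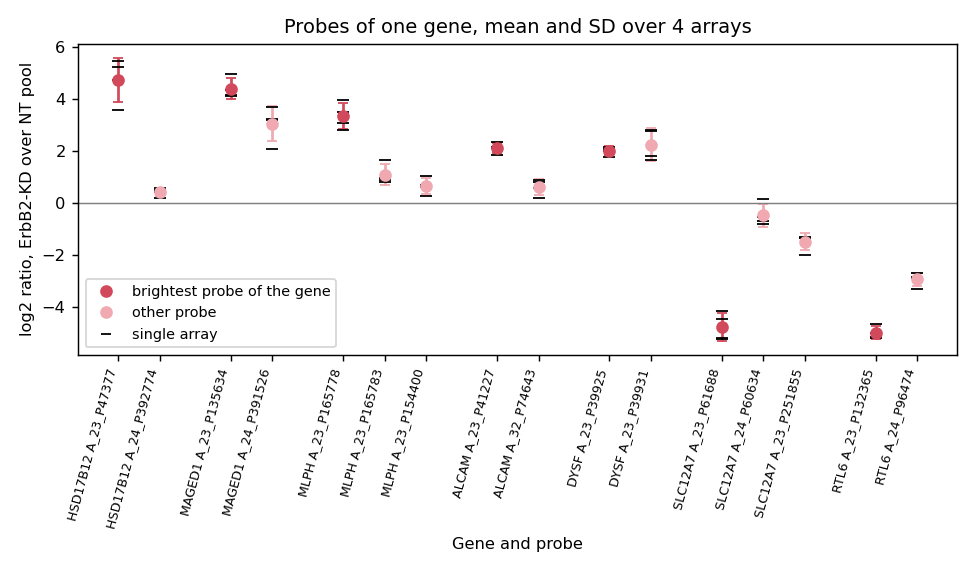
Log2 ratio of ErbB2-KD over the NT pool for every probe of the 7 genes with more than 1 probe, as the mean and SD over 4 arrays (circles and whiskers) and the single arrays (dashes). The brightest probe (dark) had the ratio of larger size in MAGED1, MLPH, SLC12A7, RTL6, HSD17B12 and ALCAM, but not in DYSF.

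Few probes were on in 1 RNA and off in the other. On the ErbB2-KD arrays 48 of the 41000 probes (0.117%) were on in all 4 clones and in NT on no array, and 13 (0.0317%) were on in NT on all 4 arrays and in no clone. Most of the first set changed little beyond the detection call: 14 of the 48 and 9 of the 13 had a mean ratio of at least 2-fold, and 5 and 4 of at least 5-fold. The first set held 1 member probe (MLPH) and the second 3 (both of RTL6 and 1 of SLC12A7). Without array 2 the 2 sets together held 196 probes in place of 61, and without arrays 3 and 4 in turn 106 and 108. The 5 named genes on in the clones only with the largest ratios were TENM2, a teneurin adhesion protein (mean log2 ratio 3.61 ± 0.89, SD, n = 4, at least 11.7-fold higher), SCG5, a chaperone of prohormone convertase (3.30 ± 0.41, at least 9.54-fold), DMD, which encodes dystrophin (3.06 ± 0.78, at least 7.85-fold), PABPC4L, a relative of the poly(A)-binding protein genes (2.95 ± 0.75, at least 7.69-fold), and KRTAP2-4, a hair keratin-associated protein (2.43 ± 2.23, at least 5.29-fold). KRTAP2-4 rested on array 2, with clone EV12, where the signal was 12891, against 264, 21 and 116 in the other clones. Besides the members, the 5 named genes on in NT only with the largest ratios were KCTD15, a BTB domain protein (-2.59 ± 0.36, at least 5.46-fold lower), ART4, the carrier of the Dombrock blood group (-2.40 ± 0.37, at least 4.86-fold), ECM2, an extracellular matrix protein (-1.88 ± 0.28, at least 3.68-fold), COL5A1, a collagen V chain (-1.84 ± 0.30, at least 3.57-fold), and GFRA1, a receptor for glial cell line-derived neurotrophic factor (-1.59 ± 0.43, at least 3.01-fold). As these 10 were ranked on the same values, they too are a description. RTL6 had a larger bound than any of them.

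**Figure D4:**
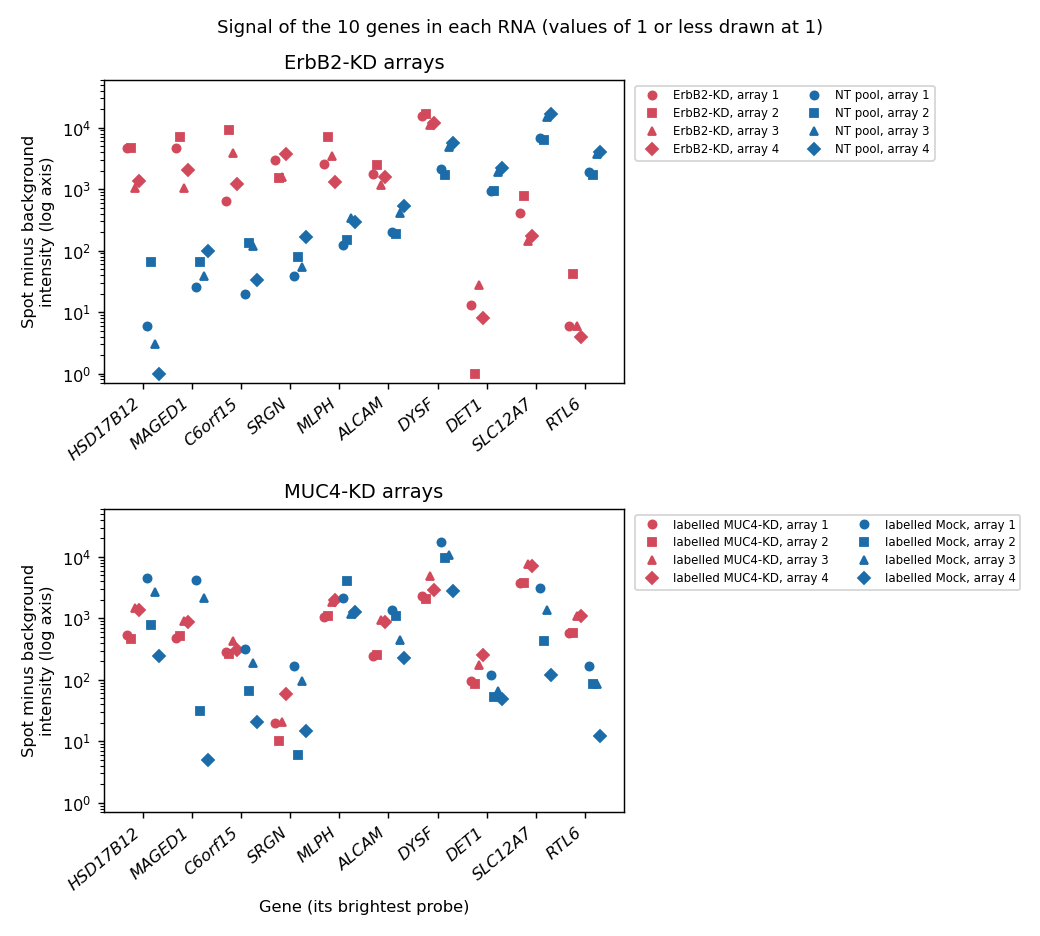
Spot minus background intensity (log axis, values of 1 or less drawn at 1) of the brightest probe of each gene in both RNAs on the ErbB2-KD arrays (top) and the MUC4-KD arrays (bottom), with 1 symbol for each array. On the MUC4-KD arrays the RNA labelled Mock ran from 5 to 4128 for MAGED1 and from 118 to 3138 for SLC12A7, while the RNA labelled MUC4-KD ran from 487 to 907 and from 3788 to 7572.

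The MUC4-KD arrays asked whether the same genes differed in other clones, against another control pool. Before any mean is given, the single arrays have to be seen, because for genes such as MAGED1 they differed widely. In RNA labelled MUC4-KD relative to RNA labelled Mock, MAGED1 had log2 ratios of -1.57, 3.51, -1.56 and 2.37 on arrays 1 to 4. Arrays 1 and 3 thus differed by 0.0022, and the means of arrays 1 with 3 and 2 with 4 differed by 4.51. The difference lay in the RNA labelled Mock, whose signals were 4128, 31, 2113 and 5, against 487, 509, 907 and 865 in the RNA labelled MUC4-KD. For 7 of the 10 genes the 2 pairs differed by more than the arrays within either pair: MAGED1, SRGN, MLPH, SLC12A7, HSD17B12, C6orf15 and DYSF. The share of all probes divided in this way was not counted, so nothing is read from this number. Over the probes tested in both experiments, log2 ratios of arrays 1 and 3 correlated at r = 0.82 and those of 2 and 4 at 0.41. Arrays 1 and 2 correlated at 0.83, 2 and 3 at 0.68 and 3 and 4 at 0.63, so the pairs did not stand out there. Arrays 1 and 3 carry opposite dyes, as do 2 and 4, and arrays 1 and 3 were on the same slide while 2 and 4 were on different ones. ALCAM divided by dye instead, at -0.97 and -0.72 with the RNA labelled MUC4-KD in Cy3 and 0.60 and 0.46 with it in Cy5. Whether each array held a clone of its own could not be read from the labels. The values were therefore also tested with each pair averaged, as 2 values.

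Of the 9 genes tested on these arrays, 5 passed limma's test at an adjusted p of 0.05, 4 with a positive and 1 with a negative mean. Over all 25047 tested probes 29.0% passed, 15.9% higher and 13.2% lower, so that passing was common on these arrays. The same 5 genes ran 1 way on all 4 arrays, as 49.7% of tested probes did. RTL6 was the clearest, with log2 ratios of 2.50, 3.17, 2.53 and 2.73 (mean 2.73 ± 0.31, SD, n = 4; adjusted p = 0.000834 by limma). Signals were 577, 579, 1110 and 1092 in the RNA labelled MUC4-KD and 170, 87, 84 and 12 in the RNA labelled Mock, and the second probe had a mean of 1.37 (limma adjusted p = 0.00239). RTL6 passed under all 21 alternatives run for it, between 2.05 and 3.79. SLC12A7 had 1.52, 4.24, 1.98 and 4.03 (mean 2.94 ± 1.39, SD, n = 4; limma adjusted p = 0.00994). DET1 had 0.61, 1.05, 0.51 and 0.43 (mean 0.65 ± 0.28, SD, n = 4; limma adjusted p = 0.0210). C6orf15 had 0.96, 2.15, 0.50 and 1.28 (mean 1.22 ± 0.70, SD, n = 4; limma adjusted p = 0.0207). DYSF was the gene that was lower, with -1.50, -0.80, -1.63 and -1.11 (mean -1.26 ± 0.38, SD, n = 4; limma adjusted p = 0.00485), and its second probe had a mean of -1.39 (limma adjusted p = 0.00964).

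The other 4 tested genes did not pass. MAGED1 averaged 0.69 ± 2.64 (SD, n = 4) with a limma adjusted p of 0.617, and -0.25 without array 2. HSD17B12 had -1.58, 0.58, -1.18 and 0.95 (mean -0.31 ± 1.26; limma adjusted p = 0.644), MLPH had 0.29, -0.43, 0.23 and -0.65 (mean -0.14 ± 0.47; limma adjusted p = 0.620), and ALCAM averaged -0.16 ± 0.80 (limma adjusted p = 0.723). SRGN was too dim for the test: it was on in the RNA labelled MUC4-KD on arrays 1 and 4 and in the RNA labelled Mock on arrays 1 and 3, with signals of 10 to 59 and of 6 to 169. The calls of DET1 and C6orf15 were the weakest. Without array 1 neither passed (adjusted p = 0.0817 and 0.0535 by limma), and DET1 also did not pass without array 2 or 3. With median centring in place of loess RTL6 alone passed.

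**Figure D5:**
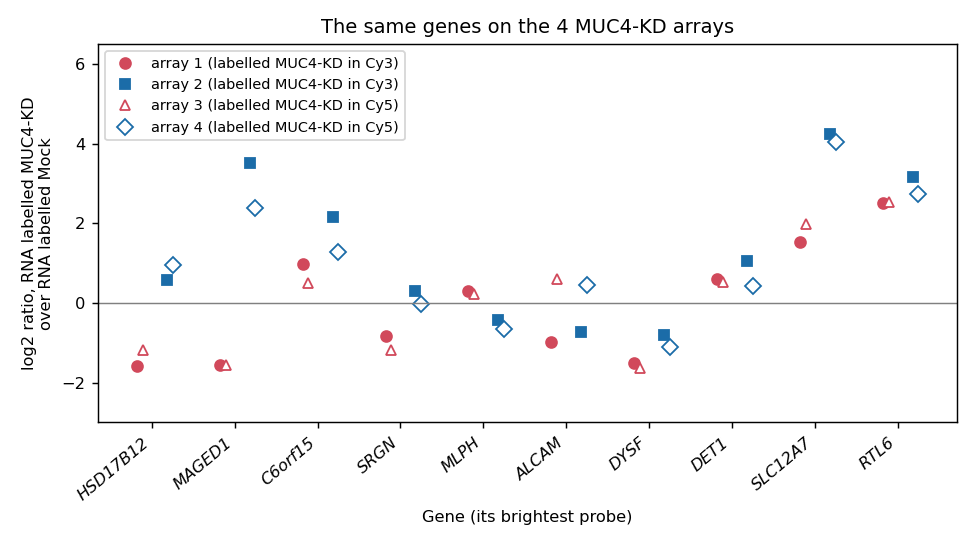
Log2 ratio of RNA labelled MUC4-KD relative to RNA labelled Mock on each of the 4 MUC4-KD arrays for the brightest probe of each gene, with arrays 1 and 3 in red and 2 and 4 in blue. The colours separate for MAGED1, HSD17B12 and SLC12A7, whereas ALCAM separates by filled and open symbols, the dye.

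Set side by side as labelled, 2 of the 10 genes had the same sign in both experiments (MAGED1, at 4.41 and 0.69, and C6orf15, at 3.97 and 1.22) and 8 had opposite signs. The share of opposite signs over all probes was not counted, so nothing is read from this number. On the MUC4-KD arrays MAGED1, MLPH, HSD17B12 and ALCAM did not pass and SRGN was not tested, so their signs there are not settled. With the labels of those arrays exchanged, every sign there would turn. The 3 genes that were lower in ErbB2-KD had positive means on the MUC4-KD arrays as labelled, namely RTL6 (-4.98 and 2.73), SLC12A7 (-4.74 and 2.94) and DET1 (-4.04 and 0.65), and DYSF had 2.01 and -1.26. In each of these 4 genes all 4 arrays of the one experiment lay on the other side of 0 from all 4 arrays of the other. The difference was not tested, since the ErbB2-KD values chose the genes. Among the genes most like the members, SCG5 was 0.98 (limma adjusted p = 0.00670), KRTAP2-4 was -2.56 (limma adjusted p = 0.00242), ECM2 was -1.80 (limma adjusted p = 0.00147), COL5A1 was 0.97 (limma adjusted p = 0.0370) and GFRA1 was 1.10 (limma adjusted p = 0.00645) on the MUC4-KD arrays, PABPC4L was 0.67 (limma adjusted p = 0.00969), DMD at 0.27 and KCTD15 at 0.47 did not pass, and TENM2 and ART4 were too dim for the test. Over all probes of those arrays, 175 (0.427%) were on in the RNA labelled MUC4-KD only and 93 (0.227%) in the RNA labelled Mock only, with no member probe among them. Of these, 26 and 27 had a mean ratio of at least 2-fold and 6 and 0 of at least 5-fold, so that more probes than on the ErbB2-KD arrays crossed the detection limit but not more of them by 5-fold.

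Neighbouring genes were read to see whether the change reached beyond the gene itself. By the order of protein-coding genes in RefSeq, the nearest one with a tested probe on either side was taken for all 10 members, 20 in all. Genes without a tested probe were passed over, so that not all 20 were adjacent to their member. Most were passed over beside MAGED1 (28 before PPP1R3F and 6 before SSX2), with 2 before PARVB and 4 before ACCS. By limma none of the 20 reached an adjusted p of 0.05 in ErbB2-KD, where 2.30% of all probes did (0.846% higher and 1.46% lower). An unadjusted limma p under 0.05 was found for 4 of the 20, and for 4536 of all 23869 tested probes. RTL6 on chromosome 22 lay between PARVB (mean log2 ratio -0.22 ± 0.60, SD, n = 4) and PRR5 (0.02 ± 0.15). DET1 on chromosome 15 lay between MRPS11 (0.04 ± 0.15) and AEN (0.03 ± 0.36), HSD17B12 on chromosome 11 between TTC17 (-0.14 ± 0.24) and ACCS (-0.40 ± 0.12), and SRGN on chromosome 10 between KIFBP (0.28 ± 0.18) and VPS26A (-0.08 ± 0.29). None of these reached 2-fold. Closest to passing were PSORS1C1 beside C6orf15 on chromosome 6, at 0.65, 1.13, 0.51 and 1.11 (mean 0.85 ± 0.32, SD, n = 4; limma adjusted p = 0.0533), and CYP26B1, a retinoic acid hydroxylase beside DYSF on chromosome 2, at -2.24, -0.46, -2.64 and -2.65 (SD 1.04, n = 4; limma adjusted p = 0.0570). The first had the sign of its member and the second the opposite one, and 9 of the 20 neighbours had the sign of their member. A p that misses the threshold does not show that a neighbour did not differ.

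Genes related to the members by function were followed in 9 lists of 179 genes without the members. In ErbB2-KD 10 of their 163 tested probes (6.13%) passed an adjusted p of 0.05 by limma, 3 higher and 7 lower, for 8 of 111 genes, where 2.30% of all probes passed. Their median log2 ratio was 0.10, against -0.01 over all tested probes. All 10 probes had 1 sign on 4 of 4 arrays. With 1 array fewer the number of calls moved, to none without array 3 or 4, 2 without array 1 and 22 without array 2, and the calls over all tested probes moved the same way, from 550 to 55, 59, 162 and 921. Centring by the median in place of loess also left none of the 10.

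In the MAGE family 2 of 11 tested probes passed, both lower: MAGEF1 (-1.13 ± 0.26, SD, n = 4; limma adjusted p = 0.0200) and MAGEC2 (-1.28 ± 0.55; limma adjusted p = 0.0454). The median of the 11 probes was 0.59, and the largest means had the sign of MAGED1 without passing. Named after their values were seen, both probes of MAGED2, of the same MAGE-D subfamily, averaged 1.63 ± 0.90 and 1.58 ± 0.84 (limma adjusted p = 0.0662 and 0.0625), MAGEA12 averaged 1.77 ± 1.05 and MAGEA6 averaged 1.71 ± 1.11, each above 0 on 4 of 4 arrays. Of the RAB27 and melanophilin transport list 2 of 19 passed, both of SYTL3, a RAB27-binding synaptotagmin-like protein, which rose by 1.31 ± 0.46 (limma adjusted p = 0.0295) and 1.09 ± 0.25. For the DET1-COP1 ligase and its substrates 3 of 26 passed. TRIB1, a pseudokinase that brings substrates to COP1, rose by 1.33 ± 0.31 at 1 probe (limma adjusted p = 0.0155), while its other probe averaged 0.40 ± 0.30 (limma adjusted p = 0.235). Both probes of its relative TRIB3 fell, with means of -1.22 ± 0.52 (limma adjusted p = 0.0459) and -1.04 ± 0.37.

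Among proteoglycan core proteins 1 of 18 probes passed, COL18A1, the chain of collagen XVIII (-2.78 ± 1.35, from -3.83 to -0.90; limma adjusted p = 0.0447), whose other probe averaged -1.16 (limma adjusted p = 0.0798). Among the cation-chloride cotransporters and their kinases 1 of 16 passed, WNK1, the kinase at the head of their regulatory cascade (-0.81 ± 0.11; limma adjusted p = 0.0282), whose other tested probe averaged -0.66 (limma adjusted p = 0.0822). Of the hydroxysteroid dehydrogenase and fatty acid elongation list 1 of 22 passed, HACD2, the dehydratase that takes the next step after HSD17B12 in the elongation cycle (-1.02 ± 0.19; limma adjusted p = 0.0207). Its sign was opposite to that of HSD17B12. None of the 6 probes of the Gag-like genes, the 20 of the immunoglobulin superfamily adhesion molecules or the 25 of the ferlins and membrane repair genes passed, and medians were -0.01, 0.15 and -0.02.

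On the MUC4-KD arrays 47 of 176 probes of these lists (26.7%) passed, for 40 genes. In the RNA labelled MUC4-KD 30 of them were higher and 17 lower, beside 29.0% of all probes. By list these were 5 of 13 probes of the MAGE family, 7 of 19 of RAB27 transport, 5 of 17 of proteoglycans, 3 of 17 of the cotransporters, 3 of 7 of the Gag-like genes, 5 of 30 of DET1-COP1, 5 of 24 of fatty acid elongation, 8 of 24 of the adhesion molecules and 6 of 25 of the ferlins and membrane repair genes, the last all higher.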

How the data were processed

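The authors hybridised Cy3- and Cy5-labelled cRNA to 44K arrays, scanned them and deposited Agilent Feature Extraction 10.5.1.1 output (10.5 in the labels). It holds the median intensity of each spot and of its background, and a log10 ratio of Cy5 over Cy3 after the software's own background and dye correction. The authors also deposited a table of log10 ratios, which equals these with the sign turned to knockdown over control and was no separate alternative. The further processing by the authors, in GeneSpring, and their lists of fold changes and p-values were not used, except that 192 probes take their gene name from those lists. No column belonged to another series. Another 25398 probes were named through their accession in RefSeq and 15410 of the 41000 were not.

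The log2 ratios were computed from the deposited intensity values with limma 3.58.1 in R 4.3.3. Steps were normexp background correction (offset 50), loess within arrays, a turn of each ratio to knockdown over control as labelled, and the mean over spots of a probe. Outlier spots were left out of that mean but not of the loess fit. The normexp fit used spots without outlier flags. Fitted on all spots, 1 to 5 spots with extreme local background on ErbB2-KD arrays 2 and 4 and MUC4-KD array 4 widened the estimated background (on the last array in Cy3 to an SD of 629, against 1.18) and compressed the ratios. This was chosen after seeing the data, and the fit on all spots is an alternative. A probe was tested if well above background on all 4 arrays in either RNA, with lmFit and eBayes on the mean against 0 and Benjamini-Hochberg over all tested probes. The pool counts as 1 control sample, so no test holds the spread between control clones. The p-values measure the spread between these arrays, which for MUC4-KD may be partly technical. The number of arrays limits the precision: between 58.0% and 74.9% of probes were called well above background per channel, saturation was absent, and the median SD between arrays was 0.31 (ErbB2-KD) and 0.30 (MUC4-KD). The fit was tested on simulated data.

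The members and all gene lists were chosen with earlier results of these data known. From the marker lists, 2 genes are not reported here. The value of a gene is that of its brightest tested probe (over all arrays), with the others beside it. Named besides the members are ERBB2 and MUC4, related genes with an adjusted p under 0.05 in ErbB2-KD (at most 3 per list), the 5 genes with the largest ratio in each direction among probes on in 1 RNA only, and the nearest neighbours with a tested probe, of which a part is printed. No genome coordinates of the arrays are given, and those of promoters are RefSeq's. Figures were drawn with matplotlib 3.10.9. Alternatives were an offset of 10, the software's log ratios, median centring, other filters, a dye term, the slide or replicate number as a block, an intensity trend, 1 fit over 8 arrays, the methods' Student's test, an unadjusted p, MUC4-KD array pairs averaged, the mean of all probes, each dye orientation and leaving out each array.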

Additional observations from a re-analysis of the deposited data

Results flagged for a closer look

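Among 38 sets of 4 arrays (19 member probes in 2 experiments), 1 array lay apart from the other 3 by the test for a single outlying value. Chance does this in about 1 of 20 sets of values that were not selected. Members were selected for large or even ratios in ErbB2-KD, so that rate need not hold for those sets. The flagged array was array 1 (clone EV7) for the dim SLC12A7 probe A_23_P251855. Its log2 ratio was -1.97 in ErbB2-KD over NT, where the other 3 arrays lay between -1.33 and -1.30. The probe was on in no ErbB2-KD clone, and the mean of its ratios was -1.48 here and -4.34 in the log ratios of the scanner software.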

How the results depend on the processing

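The members called on the MUC4-KD arrays (5 of 9) stayed within 1.5 times that number except with median centring (1), the methods' t-test after Benjamini-Hochberg (2), normexp fitted on all spots (3), and when single arrays were left out, where 3 to 5 passed. With array pairs 1 with 3 and 2 with 4 averaged it was 5. Tested member values on these arrays kept their direction in all but 6 of 196 alternatives, all 6 of genes that did not pass: MAGED1 (-0.25 to 1.44 with 1 array left out, reversed without replicate 2), MLPH (-0.28 to 0.029, without replicate 4), HSD17B12 (-0.73 to 0.11, without replicate 1), and ALCAM (-0.41 to 0.11, without replicate 1, and 0.028 without replicate 2) and also with the RNA labelled MUC4-KD in Cy5 (0.53). The related probes called in ErbB2-KD (10) became 0 with median centring, 5 without a filter on dim probes, 19 with the slide as a random block and 20 with 1 fit over all 8 arrays, 31 by the methods' t-test at p under 0.05 and 0 after Benjamini-Hochberg, 60 at an unadjusted p under 0.05, and 0 to 22 with 1 array left out. On the MUC4-KD arrays (47) they became 11 with median centring, 26 by the methods' t-test after Benjamini-Hochberg, 80 at an unadjusted p and 17 to 57 with 1 array left out. Over all tested probes, the calls were 550 in ErbB2-KD and 55 to 921 with 1 array left out, and 7273 and 2420 to 9350 on the MUC4-KD arrays. Probes on in 1 RNA only in ErbB2-KD (61) became 85 to 196. The slide could be fitted as a block only over all 8 arrays.

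The replicate numbers did not pair the arrays of the 2 experiments (correlations of -0.20 to -0.08 between same-numbered deviations). With the replicate block over all 8 arrays, 5 members, 20 related probes in ErbB2-KD and 53 on the MUC4-KD arrays passed, as without the block in that fit.

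Dim probes limit the sizes given: ratios of RTL6, DET1 and HSD17B12 depend on the offset, with means of -6.05, -4.93 and 5.83 at an offset of 10. Folds given as bounds hold for the main background correction only. With normexp fitted on all spots the mean of RTL6 was -4.56.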
